A study of Arabidopsis thaliana with 6 samples.

Results

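The arrays with the codes CVL, CVM and CVH were compared with those with the codes CLL, CLM and CLH, paired by the last letter of the code, so that each CV array was set against the CL array with the same ending. All 6 arrays of the series enter this comparison, 3 against 3. Of 8247 probe sets that are not array controls, 4425 had a mean signal of 20 or more over the 6 arrays and are described here. The genes set out below are mainly those whose 3 paired differences (CVL minus CLL, CVM minus CLM and CVH minus CLH) had the same sign, grouped by function. The direction of a gene in these pairs is therefore part of how it was chosen, and only the size of its differences against their spread was tested.

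Biotin-labelled RNA from unshaded rosette leaves was hybridised to each array. The plants were Arabidopsis thaliana, the thale cress, of the accession Ws-2 with no genetic modification, at growth stage 3.90, in a study of how leaves acclimate to light intensity. Each code had 1 array, at 60% humidity in every growth record. No label says what CL, CV, L, M or H stand for, so the letters are used here as names without a light level. Only the growth records of CLL and CVL have an entry for the dark period (16 hours, at 15 °C). Nothing in the labels says whether plants were grown or harvested separately, how many plants were pooled, or whether arrays were processed in batches. Differences between CV and CL therefore cannot be told apart from differences in growth or processing between the 2 sets of arrays. With 1 array per code, the p-values of the paired comparison rest on the spread of the paired differences between endings. That spread holds variation among single arrays, which may be technical, and any real change of the difference with the ending. These parts cannot be separated, so a gene whose difference changes with the ending can have a high p-value. RNA came from whole leaves, so fewer cells of a type and less RNA per cell cannot be told apart.

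Leaves that acclimate to light adjust the proteins that harvest it, the Calvin cycle enzymes that use its energy, and the thiol and ascorbate systems that remove the reactive oxygen made along the way. Growth of new leaf tissue draws on protein synthesis, whereas ageing, shaded or stressed leaves recycle their contents by autophagy, which wraps parts of the cell in a membrane and carries them to the vacuole, and by the ubiquitin system, which tags single proteins for the proteasome. Vacuolar proteases finish the breakdown.

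Signals are the deposited intensities, which averaged 100.2 on every array after 2% was trimmed from each end. Differences are given on the log2(signal + 3.9) scale as CV minus CL, and they understate the change of dim probe sets. Rubisco activase (RCA) and the antenna protein gene LHCB4.1, both typical of green leaf, had mean signals of 9817 and 10381, and the pollen gene VGD1 had a mean of 4.13; 2 of 18 leaf markers and 1 of 4 pollen markers could be found by name, and 0 of the 12 seed, 9 flower and 8 root markers. The median signal was lower on CVL (21.9) and CVM (20.0) than on CLL (26.1) and CLM (24.8), and close to level between CVH (25.0) and CLH (24.0). The median paired difference over the 4425 probe sets was accordingly -0.13 at L, -0.17 at M and 0.05 at H. RNA quality, read as the 3-prime to 5-prime ratio of the GAPDH control, was at 3.76, 2.81 and 6.22 for the CL arrays and 3.20, 3.39 and 5.50 for the CV arrays (L, M and H in turn), so the ratio was not higher throughout on either side. The scanner background was higher on CVL (73.5) than on CLL (56.1), lower on CVM (56.6) than on CLM (64.0) and higher on CVH (68.8) than on CLH (64.5). The part of these properties in the differences was not tested.

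Of the 4425 probe sets, 646 (14.6%) were higher in CV at all 3 endings and 988 (22.3%) were lower, and 2791 were mixed. The split depended on the scaling. Of the probe sets with the same sign throughout, 39.5% were higher as deposited, 50.5% after quantile normalization and 54.9% when each array was centred on its median. The 3 CV arrays all lay above the 3 CL arrays for 381 probe sets (8.61%) and below them for 576 (13%). A model with the start (CV or CL) and the ending of the code, fitted with limma over all 4425 probe sets, called 2 (0.0452%), with p-values adjusted by the method of Benjamini and Hochberg and a threshold of 0.05, and 645 had an unadjusted p under 0.05, 293 of them higher and 352 lower in CV. The 2 called probe sets have no gene listed. The signal of 12100_at was 419 (CLL), 492 (CLM) and 308 (CLH), against 86.8 (CVL), 102 (CVM) and 41.9 (CVH). Its CV values were all below its CL values, with differences of -2.22 at L, -2.22 at M and -2.77 at H and a fitted difference of -2.40 (SE 0.24, adjusted p = 0.0402). That of 15118_s_at was 1426 (CLL), 2356 (CLM) and 4512 (CLH), against 363 (CVL), 428 (CVM) and 841 (CVH). It was higher towards H in both starts and lower in CV at each ending (-1.96 at L, -2.45 at M and -2.42 at H). The fitted difference was -2.28 (SE 0.21, adjusted p = 0.0402). Both calls were lost when the M pair was left out (adjusted p = 0.109 for each), when arrays were centred on the median (0.107 for each), without the intensity trend (0.0854 for each) and without the ending in the model (0.06 for 12100_at and 0.0794 for 15118_s_at), while 149 probe sets were called without the L pair and 43 without the H pair, in fits with 1 residual degree of freedom. No probe set with a named gene was called, and the lowest adjusted p among them was 0.0857.

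The direction of the differences went with the level of the signal. Among the 1569 probe sets with a mean signal of 20 to 50, 8.92% were higher in CV at all 3 endings and 22.6% lower. Among the 298 with a mean of 1000 or more, 28.5% were higher and 16.1% lower. After quantile normalization the shares were 15.6% higher and 16.1% lower in the dim class and 23.2% and 19.8% in the bright class, so most of the shortfall of higher calls among dim probe sets was not seen on that scale. With arrays centred on the median they were 14.0% and 17.2% in the dim class and 35.9% and 9.73% in the bright class.

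**Figure D1:**
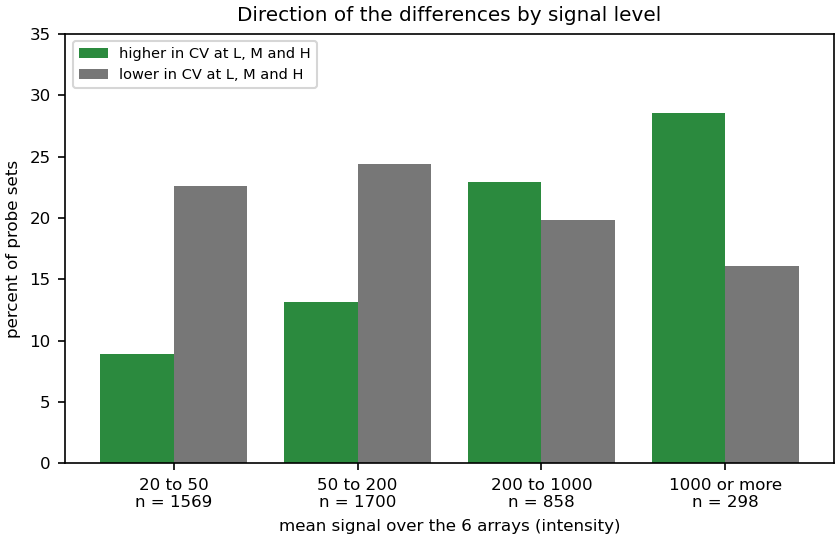
Percent of probe sets that were higher (green) or lower (grey) in CV at L, M and H, by mean signal over the 6 arrays. The share of higher probe sets runs from 8.92% in the dimmest class to 28.5% in the brightest, and the share of lower ones from 22.6% to 16.1%, on the values as deposited.

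Where 3 signals are given for a start below, they stand in the order L, M, H. For the account by function, a gene was represented by its brightest probe set, which gave 1766 genes, of which 621 (35.2%) had the same sign at all 3 endings, 244 higher and 377 lower in CV. The median fitted difference over these genes was -0.09. Function lists were drawn from gene symbols and synonyms, so that only genes with a name in the annotation could enter, and 313 genes of 31 lists passed the signal threshold. Of these 313, 40 were higher in CV at all 3 endings (12.8%) and 74 lower (23.6%), close to the shares over all probe sets, so the lists as a whole did not stand apart. No list was tested as a set, and none of its genes was called by limma. Of the 134 genes and probe sets named for the same sign throughout, 123 kept it after quantile normalization and 119 when arrays were centred. HPR, RRP41 and AT4G02620 lost it in the first case only, LYC, GLX2-1, AIM1, AVA-P2, PIA1, DER2.1 and RHF1A in the second only, and DIM1A, PRK, SRC2, GH9B18, XEG113, RAB6A, WLIM1 and GLR2.7 in both. The class III peroxidase list is not described, because only 1 of its 4 listed genes passed the threshold. Members of that family given by locus alone could not enter the list.

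**Figure D2:**
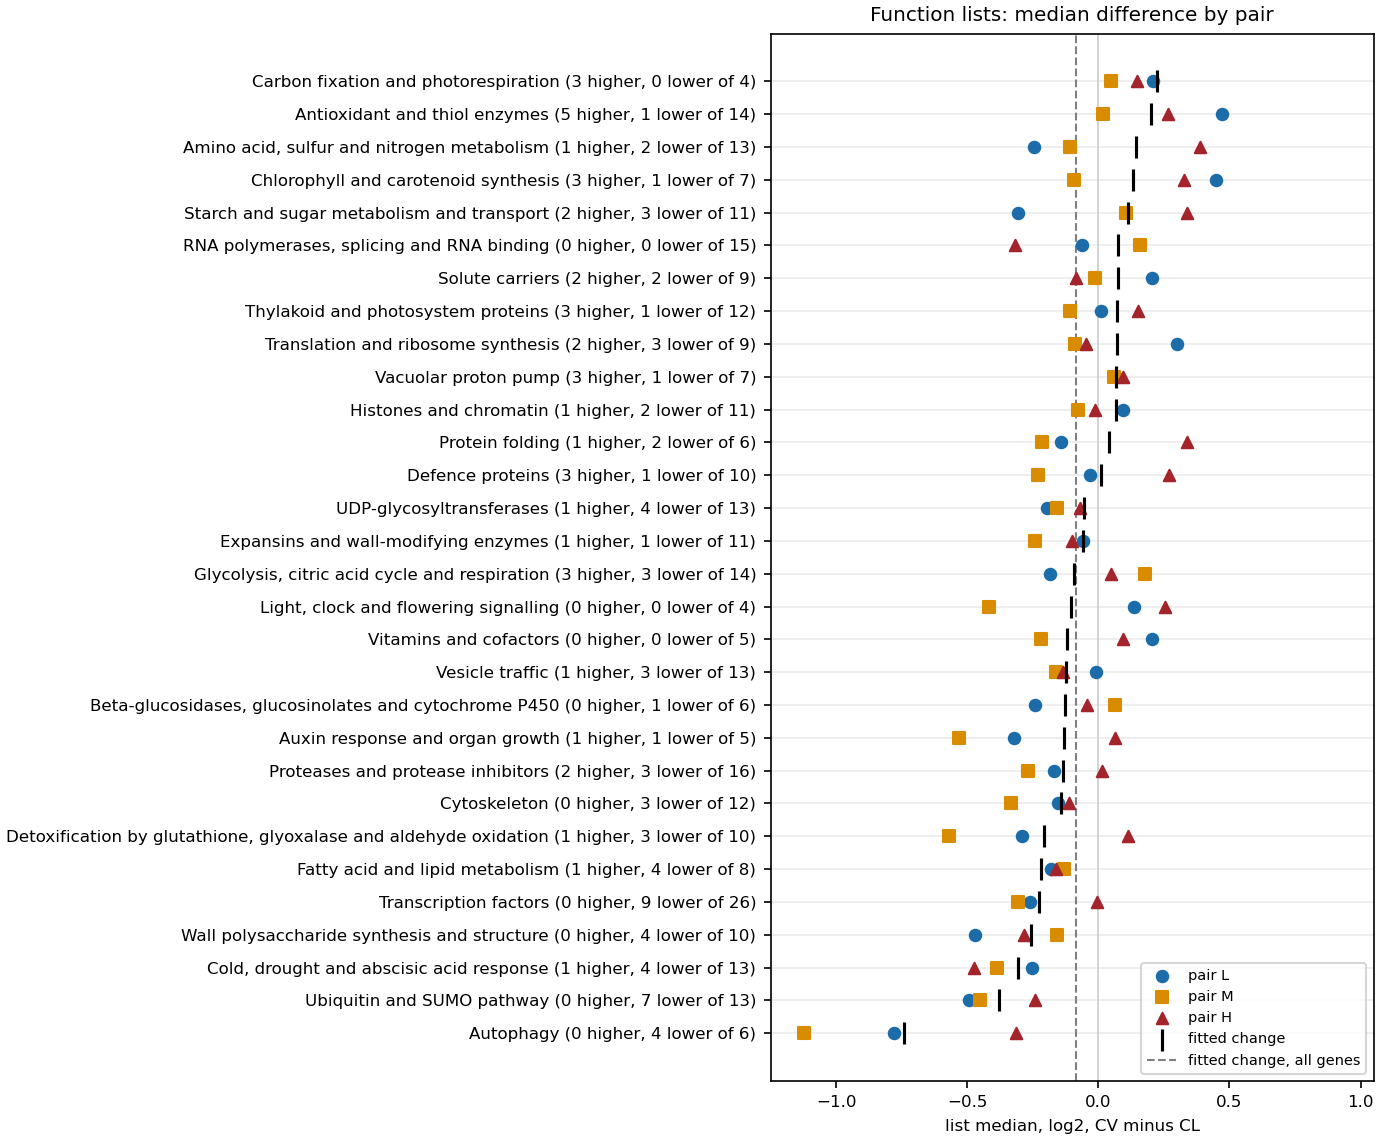
Median difference between CV and CL over the genes of each of the 30 lists with 3 or more genes, for the pairs L, M and H (coloured points) and for the limma fit (black bar), on the log2(signal + 3.9) scale, with the fitted median of all genes as a dashed line. The autophagy list lies lowest at L and M, and the cold, drought and abscisic acid list at H. Several lists are below 0 in all 3 pairs, among them these 2 and the ubiquitin list.

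The autophagy list had the lowest median fitted difference of the 30 lists with 3 or more genes, but no gene of it was called. Of its 6 genes, all members of the ATG8 family of small ubiquitin-like proteins that are anchored in the autophagosome membrane and recruit its cargo, 4 were lower in CV at all 3 endings and 0 higher, against 22.3% of all probe sets lower, and the median fitted difference was -0.74. The same 4 were lower throughout after quantile normalization, and 5 of 6 when arrays were centred. The signal of ATG8E was 146 (CLL), 432 (CLM) and 470.1 (CLH), against 119.6 (CVL), 51.4 (CVM) and 77.8 (CVH). The pair at L was close to level and the pairs at M and H were far apart (-0.28 at L, -2.98 at M and -2.54 at H), since the signal was higher at M and H than at L in CL and lower in CV. ATG8F, the brightest of the family, had signals of 675 (CLL), 906 (CLM) and 724 (CLH), against 466 (CVL), 298 (CVM) and 554 (CVH). Here too the CV and CL arrays did not overlap, and the widest gap was at M (-0.53 at L, -1.59 at M and -0.38 at H). In ATG8D the signals were 125 (CLL), 159 (CLM) and 172 (CLH), against 55.0 (CVL), 65.0 (CVM) and 123 (CVH). Those of APG8A, the ATG8A gene, were 103 (CLL), 136 (CLM) and 108 (CLH), against 61.9 (CVL), 65.4 (CVM) and 91.1 (CVH). In both genes CVH lay well above CVL and CVM but still below every CL array, and the smallest difference was at H (-0.46 and -0.24). The fitted differences were -1.93 (SE 0.49, adjusted p = 0.193) for ATG8E, -0.94 (SE 0.25, adjusted p = 0.193) for ATG8D, -0.84 (SE 0.29, adjusted p = 0.283) for ATG8F and -0.65 (SE 0.24, adjusted p = 0.3) for APG8A, each from 3 arrays against 3. The other 2 genes were mixed: ATG8C was lower at L and M and level at H (-0.88 at L, -0.87 at M and 0.01 at H), and ATG8B, a dim gene with a mean signal of 23.4, was lower only at L (-0.86 at L, 0.24 at M and 0.33 at H).

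In the ubiquitin and SUMO pathway 7 of 13 genes were lower in CV at all 3 endings, against 22.3% of all probe sets, 0 were higher and 6 were mixed, with a median of -0.38 and no gene called. After quantile normalization 7 and after centring 6 were lower throughout, and 0 higher in either. UBP18, a ubiquitin-specific protease that removes ubiquitin from proteins, had signals of 43.4 (CLL), 56.9 (CLM) and 59.0 (CLH), against 4.6 (CVL), 5.3 (CVM) and 35.2 (CVH). CVL and CVM were near the offset of 3.9, so the size of the differences at L and M (-2.48 and -2.72) is uncertain. CVH lay closer to the CL arrays (-0.69), and the fitted difference was -1.96 (SE 0.44, adjusted p = 0.174). The ubiquitin-conjugating enzyme genes, which hand ubiquitin on to a ligase, differed less. UBC16 had signals of 37.8 (CLL), 47.6 (CLM) and 48.2 (CLH), against 26.6 (CVL), 22.5 (CVM) and 26.2 (CVH) and a fitted difference of -0.74 (SE 0.26, adjusted p = 0.279). For UBC29 the signals were 267 (CLL), 162 (CLM) and 265 (CLH), against 137 (CVL), 129.5 (CVM) and 174 (CVH), with CLM inside the range of the CV arrays and a fitted difference of -0.62 (SE 0.24, adjusted p = 0.32). SK18, of the SKP1-like family of ligase subunits, was dim (mean 20.6) and differed by -0.30 to -0.51. The remaining 3 genes that were lower throughout are UBC35, the gibberellin signalling F-box gene SLY1 and the RING finger gene RHF1A, each with a fitted difference from -0.47 to -0.29; they were picked out to account for the count, and RHF1A was mixed when arrays were centred. Among the mixed genes the ubiquitin protease gene UBP16 (0.94) and the SUMO-activating gene SAE1A (0.86), both dim, were higher in CV at H.

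The protease list was mixed as a whole, with 3 of 16 genes lower throughout, 2 higher and a median of -0.14, but it held a large difference in a bright gene. GAMMA-VPE is the vacuolar processing enzyme of vegetative tissue, a cysteine protease that cuts after asparagine and activates other vacuolar proteins. Its signal was 2576 (CLL), 3124 (CLM) and 2394 (CLH), against 494 (CVL), 357 (CVM) and 1509.9 (CVH). The 3 CL arrays lay close together and above all CV arrays, and CVH was the nearest to them, so the differences were -2.37 at L, -3.11 at M and -0.66 at H. The fitted difference was -2.05 (SE 0.43, adjusted p = 0.157). It was called without the L pair (adjusted p = 0.02) and without the H pair (adjusted p = 0.00117), among 149 and 43 probe sets called there. It was not called with all 3 pairs, nor without the M pair, where 0 probe sets were called. The subtilisin-like protease gene SBT3.12 had lower signals in CV, 29.2, 32.5 and 48.0 on the CV arrays against 48.2, 53.5 and 64.4 on the CL arrays. Its fitted difference was -0.57 (SE 0.23, adjusted p = 0.32). The serine carboxypeptidase genes scpl26 and scpl29 were slightly higher, by 0.25 to 0.38 and 0.09 to 0.36; a second probe set of scpl26 was level at H. BETA-VPE, the seed-type relative of GAMMA-VPE, was dim (mean 38.2) and mixed (-1.05 at L, 0.07 at M and 0.66 at H).

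**Figure D3:**
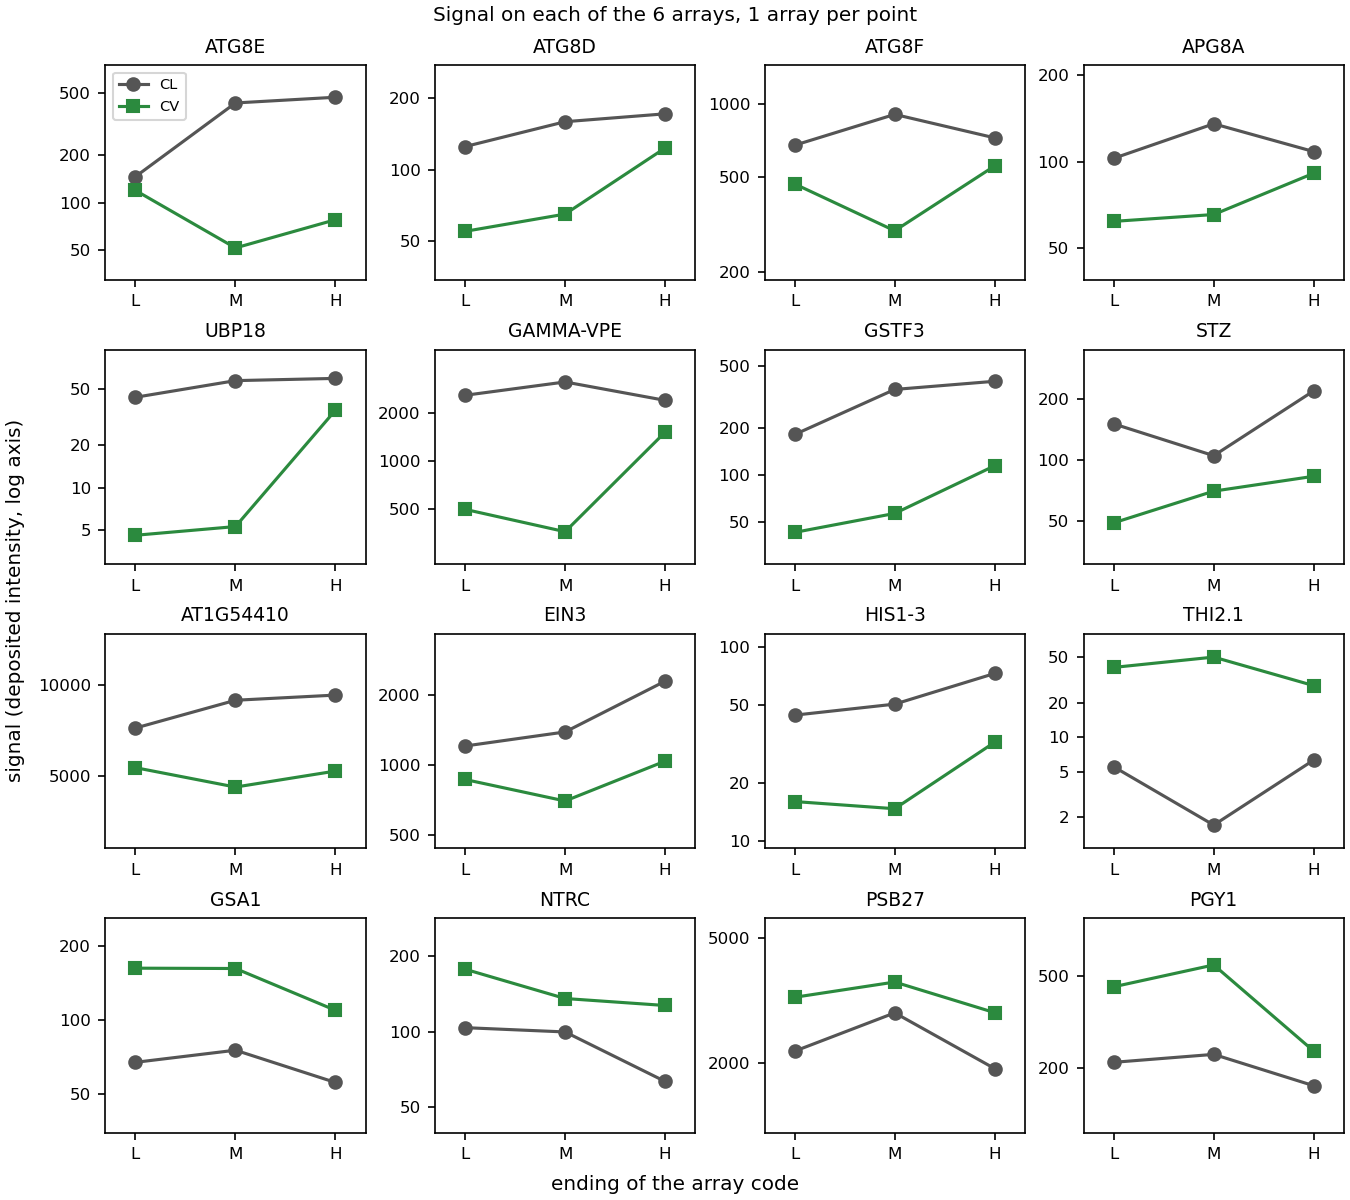
Signal of 16 genes on each of the 6 arrays (log axis), by the ending of the array code, with CL in grey circles and CV in green squares, 1 array per point. In the ATG8 genes, UBP18, GAMMA-VPE, GSTF3, STZ, AT1G54410 (HIRD11), EIN3 and HIS1-3 every CV array lies below every CL array, and in THI2.1, GSA1, NTRC, PSB27 and PGY1 every CV array lies above.

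On the side of protein synthesis, 2 genes for proteins of the large ribosomal subunit were the higher members of a list of 9 translation and ribosome synthesis genes, of which 3 were lower throughout as deposited, 1 after quantile normalization and 2 when centred. Ribosomal protein genes that the annotation gives by locus alone could not enter this list. Its counts therefore do not cover the ribosomal protein genes as a whole. The signal of PGY1 was 212 (CLL), 229 (CLM) and 167 (CLH), against 451 (CVL), 561 (CVM) and 237 (CVH), and that of PGY2 822 (CLL), 903 (CLM) and 778 (CLH), against 1712 (CVL), 1477 (CVM) and 1085 (CVH). In both genes the CV arrays lay above the CL arrays, with CVH the nearest to them. The fitted differences were 0.95 (SE 0.26, adjusted p = 0.193) and 0.75 (SE 0.22, adjusted p = 0.219). The 3 lower genes were dim: PEL1, the Pelota factor that rescues stalled ribosomes (-0.33 to -0.77), RRP41, a subunit of the RNA-trimming exosome (-0.21 to -0.35, mixed after quantile normalization), and DIM1A, an rRNA methyltransferase (-0.09 to -0.39, mixed after either rescaling). EIF4A-2, a helicase of translation initiation, was higher at L and M only (0.57 at L, 0.54 at M and -0.05 at H). Other bright genes that were higher in CV, which the annotation gives by locus alone, follow below.

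Among photosynthesis genes the widest pair was that of a mixed gene. Of 12 thylakoid and photosystem genes, 3 were higher in CV at all 3 endings and 1 lower, with a median of 0.07. After quantile normalization 5 were higher and after centring 7. Over all probe sets the higher shares were 14.6% as deposited, 18.4% after quantile normalization and 20.3% when centred. Among probe sets with a mean of 1000 or more they were 28.5%, 23.2% and 35.9%. The mean signals of the list ran from 33.4 to 10473, and the part of brightness in its counts was not tested. PSB27, which helps to assemble and repair photosystem II, had signals of 2187 (CLL), 2897 (CLM) and 1924 (CLH), against 3248 (CVL), 3632 (CVM) and 2901 (CVH). All CV arrays were above all CL arrays, if only just above CLM, and the fitted difference was 0.50 (SE 0.17, adjusted p = 0.279). The antenna gene LHB1B2 had signals of 4573 (CLL), 5952 (CLM) and 7178 (CLH), against 4925 (CVL), 6676 (CVM) and 7526 (CVH); the values were higher towards H in both starts and the difference between the starts was small (0.07 to 0.17). A second probe set of this gene was level at L and lower in CV at M and H (-0.23 and -0.21), so the direction is not settled. NdhS, a subunit of the chloroplast NADH dehydrogenase-like complex that carries cyclic electron flow, ran the other way, with 321, 392 and 363 on the 3 CL arrays and 236, 192 and 289 on the CV arrays. Its groups did not overlap, and the fitted difference was -0.59 (SE 0.25, adjusted p = 0.342). The photosystem II assembly factor PAM68 was dim (mean 33.4) and higher by 0.11 to 0.17. LHCB4.3, a relative of the antenna gene LHCB4.1, had signals of 1103 (CLL), 515 (CLM) and 248 (CLH), against 632 (CVL), 1316 (CVM) and 1876 (CVH). Its signal was lower towards H in CL and higher towards H in CV, so that the paired differences turned sign (-0.80 at L, 1.35 at M and 2.90 at H), and the fitted difference was 1.15 (SE 0.60, adjusted p = 0.417). The 4 most abundant genes of the list were mixed with small differences, the photosystem subunits PSBW (-0.04 at L, -0.08 at M and 0.20 at H), PSAE-1 (-0.12 at L, -0.12 at M and 0.10 at H) and PSBY (-0.10 at L, -0.36 at M and 0.09 at H), and the antenna gene LHCB4.1 (-0.09 at L, -0.31 at M and 0.13 at H).

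Some genes of pigment synthesis had higher signals in CV at all 3 endings, and others were mixed. GSA1 encodes glutamate-1-semialdehyde aminomutase, which makes the precursor of all tetrapyrroles. Its signal was 67.4 (CLL), 75.5 (CLM) and 55.8 (CLH), against 163 (CVL), 162 (CVM) and 109.7 (CVH). Every CV array was above every CL array, and the 3 differences were close to each other (1.23 at L, 1.07 at M and 0.93 at H). For GSA1 the model gave a difference of 1.07 (SE 0.22, adjusted p = 0.153). HEME2, the uroporphyrinogen decarboxylase of the same pathway, had 178, 187 and 138 on the 3 CL arrays and 329, 254 and 175 on the CV arrays. The groups overlapped, since CVH was below CLL and CLM, and the fitted difference was 0.54 (SE 0.24, adjusted p = 0.36). LIL3:1, a light-harvesting-like protein that holds geranylgeranyl reductase in the membrane, was higher by 0.28 to 0.68, with a fitted difference of 0.45 (SE 0.22, adjusted p = 0.394). LYC, the lycopene cyclase of carotenoid synthesis, was lower by 0.09 to 0.36, was mixed when arrays were centred, and had a second probe set that was higher in CV at H (0.71). Of the 7 pigment genes 3 were higher throughout and 1 lower, against 14.6% and 22.3% of all probe sets. The median was 0.13 as deposited, 0.00044 after quantile normalization and 0.24 when centred. The widest pairs of the list were those of a mixed gene, PORB (2.25 at L, -1.77 at M and -1.42 at H). The most abundant gene of the list, AT1G74470, was mixed too (0.45 at L, -0.30 at M and 0.25 at H).

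Of 4 genes for carbon fixation and photorespiration, 3 were higher at all 3 endings and 0 lower, but by small amounts (median 0.22). After quantile normalization 1 and after centring 2 were higher throughout. SBPASE, the sedoheptulose bisphosphatase of the Calvin cycle, had signals of 1249 (CLL), 1261 (CLM) and 991 (CLH), against 1444 (CVL), 1479.7 (CVM) and 1189.5 (CVH). The values were lowest at H in both starts, and the differences between the starts were nearly equal (0.21 at L, 0.23 at M and 0.26 at H). The fitted difference was 0.23 (SE 0.19, adjusted p = 0.625). HPR, the peroxisomal hydroxypyruvate reductase of photorespiration, stood out at H only (0.21 at L, 0.05 at M and 0.80 at H). PRK, the phosphoribulokinase, stood out at L only (0.56 at L, 0.04 at M and 0.03 at H). Rubisco activase was slightly lower at L and M and level at H (-0.27 at L, -0.17 at M and 0.00 at H).

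Among 14 antioxidant and thiol genes 5 were higher in CV at all 3 endings and 1 lower, under each of the 3 scalings. The median was 0.20 as deposited. Over all probe sets 14.6% were higher and 22.3% lower as deposited. These shares were 18.4% and 18% after quantile normalization, and 20.3% and 16.7% when centred. The higher genes of the list belong to the chloroplast, but their location was not compared with that of the other genes of the list. Of those, 8 were mixed, among them the most abundant gene of the list, TRXF2 (0.31 at L, -0.43 at M and 0.02 at H). CCS was mixed as well (0.53 at L, -0.44 at M and 0.36 at H). NTRC, a thioredoxin reductase with a thioredoxin domain of its own that passes electrons from NADPH to stromal enzymes, had signals of 104 (CLL), 99.7 (CLM) and 63.3 (CLH), against 177 (CVL), 136 (CVM) and 127 (CVH). The CV and CL arrays did not overlap, and the fitted difference was 0.71 (SE 0.23, adjusted p = 0.257). GrxC5, a glutaredoxin of the chloroplast, had 97.8 (CLL), 69.9 (CLM) and 59.8 (CLH), against 118 (CVL), 178 (CVM) and 134 (CVH). Its pair at L was close and the other pairs were wide apart (0.26 at L, 1.30 at M and 1.12 at H). For GrxC5 the model gave a difference of 0.89 (SE 0.27, adjusted p = 0.235). SAPX, the stromal ascorbate peroxidase, had 168, 123 and 108 on the 3 CL arrays and 187, 282 and 159 on the CV arrays, and the groups overlapped at CLL and CVH. Its fitted difference was 0.62 (SE 0.27, adjusted p = 0.353). The thylakoid form TAPX was higher by 0.01 to 0.43 and the thioredoxin gene ty2 by 0.03 to 0.51; these 2 complete the count. TO2, the mitochondrial thioredoxin o2, was lower (-0.50 to -0.75) at signals of 15.7, 16.2 and 16.2 on the CV arrays and 23.9, 29.9 and 25.1 on the CL arrays.

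Of 10 detoxification genes 3 were lower throughout (2 when centred) and 1 higher, near the shares of 22.3% and 14.6% over all probe sets, with a median of -0.21. GSTF3, a phi-class glutathione transferase, which couples glutathione to reactive compounds, had the lowest p of any named gene. Its signal was 181 (CLL), 353 (CLM) and 398 (CLH), against 42.6 (CVL), 56.4 (CVM) and 114 (CVH). Like 15118_s_at it was higher towards H in both starts, and each CV value was below all CL values (-1.99 at L, -2.56 at M and -1.77 at H). The fitted difference was -2.11 (SE 0.25, adjusted p = 0.0857), and it was called with robust eBayes (adjusted p = 0.0392), without the L pair (0.00164) and without the H pair (0.00458). The last 2 settings called 149 and 43 probe sets. GSTF3 was not called without the M pair, where 0 probe sets were called. The name of its probe set, 12764_f_at, carries the suffix that Affymetrix gives to probes shared within a gene family, so signal from close relatives of GSTF3 cannot be told apart. The glyoxalase II genes, of the pathway that removes methylglyoxal, were lower by smaller amounts. GLX2-1 had 313, 176 and 281 on the 3 CL arrays and 153, 150.2 and 203 on the CV arrays, and was mixed when arrays were centred. GLX2-5 differed mostly at M (-0.33 at L, -1.39 at M and -0.13 at H). ALDH3F1, an aldehyde dehydrogenase, was higher by 0.05 to 0.33. Of 13 UDP-glycosyltransferase genes, 4 were lower and 1 higher as deposited, and 3 and 3 after either rescaling. UGT72E1, which glucosylates lignin precursors, had the largest difference, with 172 (CLL), 155 (CLM) and 118 (CLH), against 77.6 (CVL), 64.2 (CVM) and 103 (CVH). Its groups did not overlap and CVH was the highest CV value, with a fitted difference of -0.84 (SE 0.28, adjusted p = 0.261). The sterol glucosyltransferase gene SGT was lower by 0.30 to 0.51 and UGT87A2 by 0.07 to 0.39, and the auxin glucosyltransferase gene IAGLU was higher by 0.05 to 0.12.

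In the list of cold, drought and abscisic acid responses, 4 of 13 genes were lower at all 3 endings and 1 higher, with a median of -0.31. Over all probe sets 22.3% were lower and 14.6% higher. The lower count was 3 of 13 after either rescaling, when 18% (quantile normalization) and 16.7% (centred) of all probe sets were lower. STZ, a zinc finger repressor linked to salt and cold tolerance, had signals of 151 (CLL), 105 (CLM) and 219 (CLH), against 48.9 (CVL), 70.1 (CVM) and 83.0 (CVH). All CV arrays were below all CL arrays, with a fitted difference of -1.16 (SE 0.27, adjusted p = 0.182), and a second, dimmer probe set was also lower (-1.42 at L, -0.43 at M and -2.10 at H). AT1G54410, which encodes the small dehydrin HIRD11, was among the brightest genes measured, with 7197 (CLL), 8905 (CLM) and 9264 (CLH), against 5312 (CVL), 4578 (CVM) and 5176 (CVH). The gap between the groups was wider at M and H (-0.44 at L, -0.96 at M and -0.84 at H), and the fitted difference was -0.75 (SE 0.16, adjusted p = 0.157). DI19, a drought-induced zinc finger protein, had 444, 373 and 473 on the 3 CL arrays and 248, 212 and 339 on the CV arrays. Its fitted difference was -0.70 (SE 0.23, adjusted p = 0.262). SRC2, a cold-regulated membrane protein, was lower by 0.07 to 0.45 and mixed after either rescaling. The abundant cold-regulated genes did not share a sign: KIN2 (mean 7888) and COR47 (mean 1648) had a positive difference in the L pair and negative ones in the other pairs, 0.27 at L, -0.39 at M and -0.80 at H for KIN2 and 0.32 at L, -2.38 at M and -1.91 at H for COR47, as did COR15B (mean 3449), at 1.56 at L, -0.28 at M and -1.34 at H.

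THI2.1, a thionin of the jasmonate-induced defences, had the largest fitted difference of the named genes that were higher in CV. Its signal was 5.5 (CLL), 1.7 (CLM) and 6.3 (CLH), against 40.7 (CVL), 50.1 (CVM) and 28.2 (CVH). The CL values were near or below the offset, so the size of the differences (2.25 at L, 3.27 at M and 1.65 at H) is uncertain, and neither of its 2 dimmer probe sets shared the direction at all 3 endings. The fitted difference was 2.39 (SE 0.44, adjusted p = 0.133). Of 10 defence genes 3 were higher throughout and 1 lower, the others being ATLP-1, a thaumatin-like protein (0.07 to 0.59), SGT1A, a co-chaperone of resistance proteins (0.21 to 0.36), and PIA1, a protein phosphatase, lower by 0.08 to 0.19 and mixed when arrays were centred.

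Of 26 transcription factor genes, 9 were lower in CV at all 3 endings and 0 higher as deposited, with a median of -0.23, but 5 were lower and 3 higher after either rescaling. EIN3, the main transcription factor of the ethylene response, was by far the brightest of the list, with 1209 (CLL), 1389.6 (CLM) and 2298 (CLH), against 868 (CVL), 701 (CVM) and 1040.5 (CVH). Every CV array lay below every CL array and the signal was highest at H in both starts, with differences of -0.48 at L, -0.98 at M and -1.14 at H and a fitted difference of -0.87 (SE 0.22, adjusted p = 0.193). HRD, an AP2 factor, had 34.5 (CLL), 33.5 (CLM) and 36.3 (CLH), against 5.1 (CVL), 17.1 (CVM) and 11.3 (CVH). Its CV values came close to the offset in CVL, so the size of the difference there is uncertain, and the fitted difference was -1.44 (SE 0.37, adjusted p = 0.193). The trihelix factor gene GT-1 was lower by 0.27 to 0.77 without overlap, and HAT3.1, a homeodomain protein, by 0.25 to 0.80 with overlap. Among 11 histone and chromatin genes 2 were lower under each scaling, and 1 was higher as deposited, 3 after quantile normalization and 2 when centred. HIS1-3, a linker histone known to be induced by drought and abscisic acid, had 44.5 (CLL), 50.7 (CLM) and 72.9 (CLH), against 16.0 (CVL), 14.7 (CVM) and 32.3 (CVH). CVH was the highest CV value and still below every CL array, and the fitted difference was -1.31 (SE 0.25, adjusted p = 0.147). ATRX, a chromatin remodelling factor, was lower at L and M and level at H (-1.24 at L, -1.39 at M and -0.03 at H), a pattern that its second, dimmer probe set did not share. HIS4, a histone H4 gene, was higher by 0.08 to 0.32. Of 15 genes for RNA polymerases, splicing and RNA binding, 0 had the same sign at all 3 endings as deposited, and the most abundant of them, the spliceosome-associated MAC3B, differed by 0.07 at L, -0.61 at M and -0.47 at H. As deposited, the same held for the 5 vitamin and cofactor genes, led by the thiamine gene THIC (-0.31 at L, -0.47 at M and 0.28 at H), and for the 4 genes of light, clock and flowering signalling, led by the clock gene GI (0.23 at L, -0.20 at M and -0.78 at H).

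Carbon metabolism held differences in both directions. MDH, the NAD-dependent malate dehydrogenase of the plastid, had signals of 157 (CLL), 112 (CLM) and 153 (CLH), against 288 (CVL), 387 (CVM) and 201 (CVH). All CV values were above all CL values, most clearly at M, and the fitted difference was 1.00 (SE 0.31, adjusted p = 0.238). The respiratory gene CYTC-1, a cytochrome c, showed the same order, with 570.2, 444 and 495 on the 3 CL arrays and 662, 955 and 582 on the CV arrays, and a fitted difference of 0.51 (SE 0.26, adjusted p = 0.413). ACLA-2, a subunit of ATP-citrate lyase, was higher by 0.17 to 0.61. PDC2, a pyruvate decarboxylase of fermentation, was lower by 0.47 to 0.80. In all, 3 of 14 genes of glycolysis, the citric acid cycle and respiration were higher and 3 lower, and 4 and 2 after either rescaling. Of 11 starch and sugar genes 2 were higher and 3 lower as deposited, 3 and 3 after quantile normalization and 3 and 2 when centred. TMT1, a sugar carrier of the vacuolar membrane, had 265 (CLL), 364 (CLM) and 432 (CLH), against 213 (CVL), 189 (CVM) and 198 (CVH). It was higher towards H in CL and not in CV, so that the pairs at M and H were the widest (-0.31 at L, -0.93 at M and -1.11 at H). The fitted difference was -0.78 (SE 0.26, adjusted p = 0.262); a second probe set was lower at M and H (-1.19 and -1.17) and higher at L (0.17). ATSPS4F, a sucrose phosphate synthase, was lower by 0.24 to 0.58. The fructose carrier gene SWEET17 was higher by 0.22 to 0.85 and AT4G16360, a beta-type subunit of the SnRK1 kinase, by 0.10 to 1.17.

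Of 8 lipid genes 4 were lower and 1 higher as deposited, against 22.3% and 14.6% of all probe sets; 3 were lower and 2 higher after quantile normalization and 2 and 2 when centred. FATB, the thioesterase that releases saturated fatty acids from the plastid, had 151 (CLL), 143.4 (CLM) and 129 (CLH), against 85.6 (CVL), 83.6 (CVM) and 86.4 (CVH). The values within each start were close together and did not overlap, and the fitted difference was -0.70 (SE 0.22, adjusted p = 0.248). PAHX, a phytanoyl-CoA hydroxylase, was lower by 0.12 to 0.89 and AIM1, a multifunctional protein of beta-oxidation, by 0.12 to 0.20. AT1G54010, the GDSL-like lipase GLL23, was higher, with 20.4, 13.1 and 16.5 on the 3 CL arrays and 31.0, 27.1 and 86.1 on the CV arrays, mostly at H (2.14). Of 13 genes for amino acid, sulfur and nitrogen metabolism 1 was higher and 2 lower as deposited, 2 and 3 after quantile normalization and 4 and 3 when centred. HISN5B, of histidine synthesis, was higher by 0.15 to 0.64, CBL, the cystathionine beta-lyase of methionine synthesis, lower by 0.23 to 0.74, and ALDH6B2, of valine breakdown, lower by 0.36 to 0.44.

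In the cell wall and cytoskeleton lists the balance of lower and higher genes went with the scaling in part. Of 10 genes for wall polysaccharide synthesis and structure, 4 were lower throughout and 0 higher (median -0.26), and 3 and 0 after either rescaling. The widest pairs of the list were those of CSLA01 (mean 485) and TBL26 (mean 654), which were mixed. CSLA01 differed by -1.28 at L, 4.59 at M and 6.62 at H (fitted 3.31, SE 1.26, adjusted p = 0.303). TBL26 differed by -0.68 at L, 3.29 at M and 2.79 at H (fitted 1.80, SE 0.69, adjusted p = 0.305). The CLH signal of CSLA01 (3.3) was below the offset, so the size of its difference at H is uncertain. TBL45 and AT2G31110 (TBL40), both trichome birefringence-like proteins, a family that acetylates wall polysaccharides, were lower by 0.34 to 0.82 and 0.33 to 0.97. AT2G37585, a glucuronosyltransferase of arabinogalactan proteins, was lower by 0.21 to 0.54, and XEG113, an arabinosyltransferase of extensins, by 0.05 to 0.40, the last being mixed after either rescaling. Of 11 expansin and wall-modifying genes, XTH32, a xyloglucan endotransglucosylase, was higher (0.06 to 0.72) and the endoglucanase gene GH9B18 lower (-0.06 to -0.53, mixed after either rescaling). Of 12 cytoskeleton genes 3 were lower and 0 higher as deposited, and 2 and 1 after either rescaling. WLIM2b, which bundles actin filaments, had 704 (CLL), 713 (CLM) and 825 (CLH), against 492 (CVL), 539 (CVM) and 393 (CVH). Its groups were apart, and the fitted difference was -0.66 (SE 0.24, adjusted p = 0.292). Its relative WLIM1 was level at L and lower at both other endings (-0.07 at L, -1.66 at M and -2.03 at H), and the beta-tubulin gene TUB9 was lower by 0.02 to 0.36. In the auxin list of 5 genes, IAA20, an Aux/IAA repressor, was lower by 0.32 to 0.76 and IAGLU was higher, as given above.

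Membrane traffic and transport genes had differences in both directions. Of the 7 genes with a name in the annotation for the vacuolar proton pump, which acidifies the vacuole, 3 were higher and 1 lower, with a median of 0.07. Of its proteolipid subunits, VHA-C3 had 1520.3, 1493 and 1553 on the 3 CL arrays and 1724, 1957 and 2099.5 on the CV arrays, a fitted difference of 0.33 (SE 0.19, adjusted p = 0.446). AVA-P2 was lower, with 2047, 2034 and 2341 in CL and 1748, 1775 and 1911 in CV in the same order, a fitted difference of -0.24 (SE 0.18, adjusted p = 0.58), and was mixed when arrays were centred. VHA-A3, a tonoplast isoform of the pump, was higher by 0.06 to 0.22, and AT4G02620 (VHA-F) by 0.03 to 0.09 as deposited, with a fitted difference of -0.00599 after quantile normalization. Of 13 vesicle traffic genes, 1 was higher and 3 lower as deposited, and 3 and 3 after either rescaling. The RAB acceptor gene PRA1.B2 was higher (0.31 to 0.75) and the ESCRT gene VPS2.1 (-0.14 to -0.62), the RAB6 gene RAB6A (-0.03 to -0.31) and the RAB5 gene ARA6 (-0.01 to -0.68) were lower. Of 9 solute carrier genes, AT3G21670 (NPF6.4), of the nitrate and peptide carrier family, was higher, with 133 (CLL), 80.1 (CLM) and 66.8 (CLH), against 231 (CVL), 243 (CVM) and 109 (CVH). The groups overlapped because CVH was below CLL, and the fitted difference was 1.00 (SE 0.26, adjusted p = 0.193). GLR3.5, a glutamate receptor-like channel, was higher mostly at H (1.03), GLR2.7 was lower mostly at L (-1.10), and the zinc carrier gene ZIP6 was lower by 0.39 to 0.64. Of 6 folding genes, the derlin genes DER2.2 (-0.36 to -0.62) and DER2.1 (-0.13 to -0.87) were lower and the DnaJ gene ATERDJ2B was higher (0.01 to 0.75). Of 6 genes in the list of beta-glucosidases, glucosinolates and cytochrome P450, 1 was lower throughout, the beta-glucosidase gene BGLU33 (-0.04 to -1.37).

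The 15 leading genes per direction were ranked by the smallest of the 3 paired differences over all 1766 genes. Most were given by locus alone in the annotation, 13 of 15 on the higher side and 12 of 15 on the lower. No role is given for these here, which does not mean that their function is unknown. On the higher side the 15 leading genes were THI2.1, AT3G47342, AT4G17390, GSA1, AT2G37660, AT4G02530, AT2G33180, AT2G35040, AT4G17560, AT2G20450, AT2G03980, AT3G58610, AT3G11630, AT4G10480 and AT2G24020, with smallest differences from 1.65 down to 0.69. In 13 of these 15 the CV and CL arrays did not overlap, a trait that the ranking itself favours. Over all probe sets 8.61% had every CV array above every CL array. The adjusted p of the 15 genes ran from 0.133 to 0.23. AT3G47342 is annotated as a small nucleolar RNA gene. Its signal was 7.0 (CLL), 9.5 (CLM) and 4.9 (CLH), against 27.5 (CVL), 46.2 (CVM) and 28.2 (CVH), and a second, dimmer probe set was lower in CV at H (-0.69). AT4G17390 was the brightest of the first 4, with 478 (CLL), 393 (CLM) and 365 (CLH), against 1621 (CVL), 1783 (CVM) and 749 (CVH). CVL and CVM were far above CVH, which in turn was above every CL array (1.76 at L, 2.17 at M and 1.03 at H). The fitted difference of 1.65 (SE 0.27, adjusted p = 0.133) was called without the L pair (adjusted p = 0.0137) and without the H pair (0.00868). These settings called 149 and 43 probe sets. Without the M pair 0 were called, this gene included. AT2G37660 had 340.1 (CLL), 516 (CLM) and 323 (CLH), against 886 (CVL), 983 (CVM) and 609.8 (CVH), with CVL and CVM again above CVH.

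The leading genes on the lower side were GSTF3, AT2G18150, AT4G28400, AT5G59170, HIS1-3, AT2G22660, AT4G27450, AT4G14250, AT4G27300, AT1G23130, HRD, AT2G03510, AT1G09280, AT4G03295 and AT4G35750, with smallest differences from 1.77 down to 0.78 in size. The groups did not overlap in any of the 15, which the ranking favours here as well. Over all probe sets 13% had every CV array below every CL array. The adjusted p of the 15 genes ran from 0.0857 to 0.225. AT2G18150 had 64.1 (CLL), 58.0 (CLM) and 175 (CLH), against 12.0 (CVL), 16.2 (CVM) and 17.7 (CVH). The CLH array was well above the other CL arrays and the CV arrays were close together, so the widest pair was at H (-2.10 at L, -1.62 at M and -3.05 at H), and the fitted difference was -2.26 (SE 0.32, adjusted p = 0.11). AT2G22660 had 163 (CLL), 133 (CLM) and 132 (CLH), against 31.9 (CVL), 34.8 (CVM) and 65.0 (CVH), a fitted difference of -1.68 (SE 0.29, adjusted p = 0.133). For AT4G03295, annotated as a small nucleolar RNA gene, 2 of the 3 CV signals were below the offset (2.5, 11.8 and 3.3), so the size of its differences is uncertain.

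**Figure D4:**
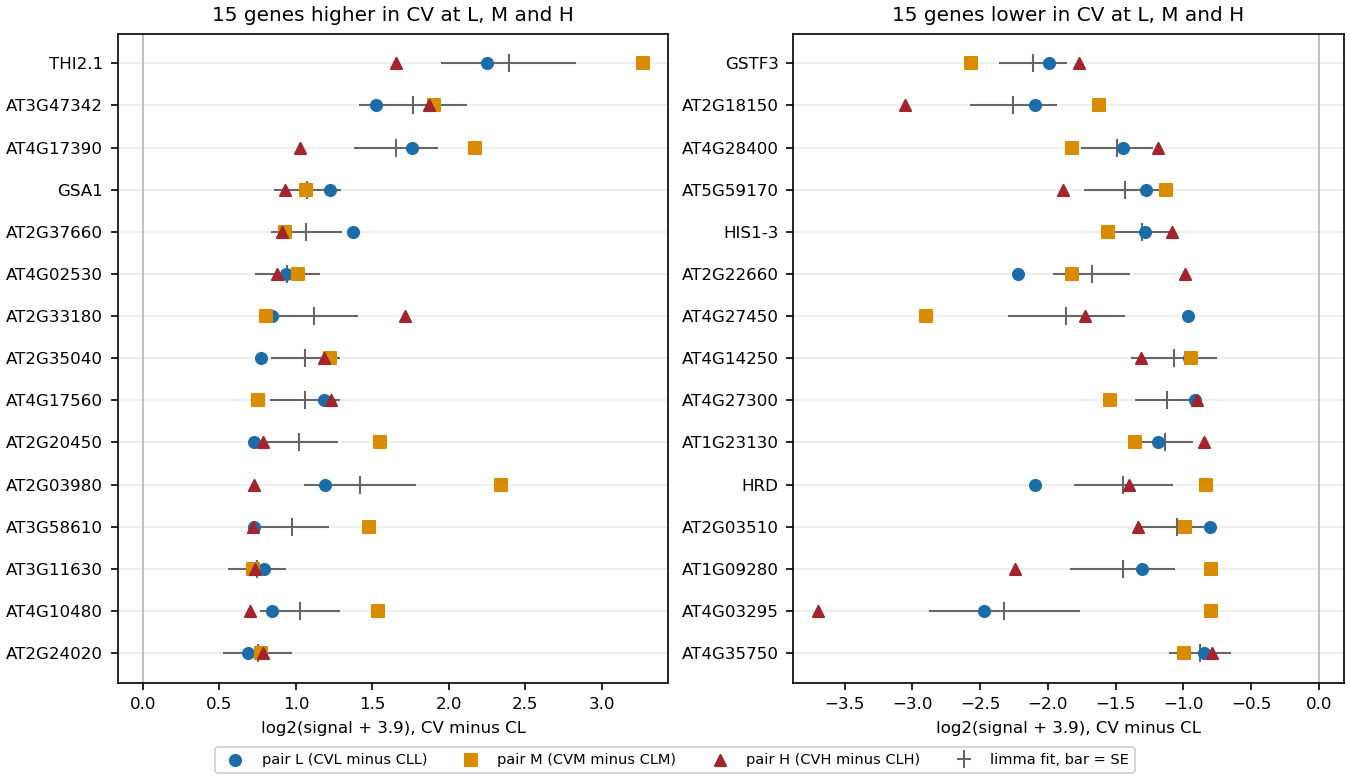
The 15 genes per direction with the largest smallest paired difference, as CV minus CL on the log2(signal + 3.9) scale, with 1 point per pair (L, M and H) and the limma fit with its standard error as a bar. On the higher side the pair at M is the farthest from 0 in THI2.1 (3.27) and AT4G17390 (2.17), and on the lower side GSTF3 lies at -1.77 or below in all 3 pairs.

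Genes with a mean signal of 500 or more gave a further view of abundant transcripts. The 8 bright genes per direction with the largest smallest difference all had CV and CL arrays that did not overlap. This ranking favours such genes, so the separation is not a separate result. Over all probe sets, dim ones included, 8.61% lay apart above and 13% below. On the higher side all 8 were given by locus alone in the annotation. Besides AT4G17390 and AT2G37660 they included AT2G41840, with 645 (CLL), 654 (CLM) and 717 (CLH), against 1539 (CVL), 1961 (CVM) and 1099.5 (CVH), and a fitted difference of 1.15 (SE 0.25, adjusted p = 0.162). AT4G26230 had 844 (CLL), 533 (CLM) and 849.9 (CLH), against 1457 (CVL), 2093 (CVM) and 1264 (CVH), a fitted difference of 1.11 (SE 0.30, adjusted p = 0.199). AT4G00810 had 485 (CLL), 454 (CLM) and 496 (CLH), against 967 (CVL), 1191 (CVM) and 762 (CVH), a fitted difference of 1.00 (SE 0.24, adjusted p = 0.193). In these 3 genes CVM was the highest array and CVH the lowest of the CV arrays. AT3G58610 (0.98) had the same order, with a second probe set that was higher at all 3 endings too, by 0.58 at L, 1.23 at M and 0.36 at H. By contrast AT3G11630 (0.79 at L, 0.72 at M and 0.73 at H) and AT2G16510 (0.61 at L, 0.69 at M and 0.69 at H) differed by nearly the same amount in each pair. On the lower side the bright genes were AT1G23130, GAMMA-VPE, EIN3, AT1G54410, WLIM2b, ATG8F, CCL and AT1G51200. AT1G23130 had 1942 (CLL), 2543 (CLM) and 2390.1 (CLH), against 852 (CVL), 989 (CVM) and 1324 (CVH), with a fitted difference of -1.13 (SE 0.20, adjusted p = 0.133). CCL, named CCR-like in the annotation, had 2119.5 (CLL), 4616 (CLM) and 5428 (CLH), against 1654 (CVL), 1005 (CVM) and 1974 (CVH). In CL the signal was higher at M and H than at L, and in CV every signal was below all CL signals, so that the pair at L was close and the others were wide apart (-0.36 at L, -2.19 at M and -1.46 at H). In CL the same order of L, M and H was seen in ATG8E and TMT1. AT1G51200 was lower by 0.26 to 0.74.

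The 3 pairs did not weigh equally in these results. Over the 4425 probe sets the paired differences at M and H had a Pearson correlation of 0.41, those at L and M 0.28, and those at L and H 0.04; the pairs share no array, and genes are not independent replicates. The differences were widest at M, where 712 probe sets had a size over 1, against 429 at L and 456 at H. After the pattern of lower values at all 3 endings, the commonest was lower at L and M and higher at H, in 872 probe sets (19.7%), whereas lower at M alone was found in 360 (8.14%). Differences that were larger at L and M than at H were seen in GAMMA-VPE, UBP18, ATG8D, APG8A, PGY1 and AT4G17390, and differences that were larger at M and H than at L in ATG8E, CCL, TMT1, EIN3, GrxC5 and WLIM1. With 1 pair per ending, a difference between endings could not be tested.

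**Figure D5:**
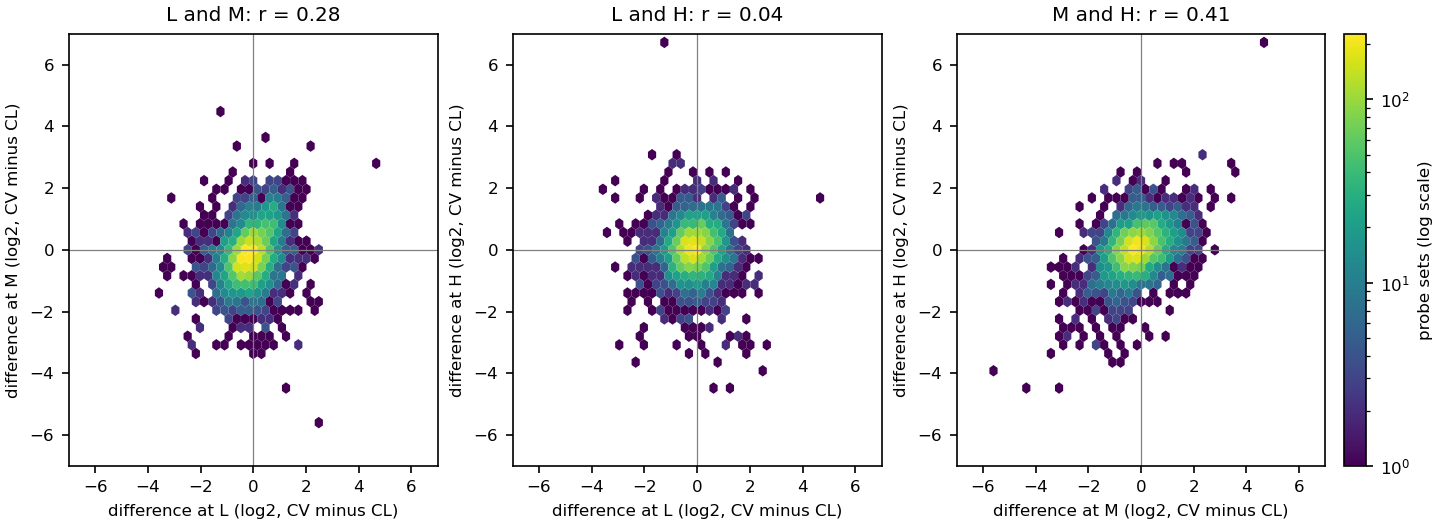
Paired differences (CV minus CL, log2 scale) of the 4425 probe sets at one ending against another, with the colour giving the number of probe sets per cell on a log scale. The clouds for L and M and for M and H lean upwards (Pearson r of 0.28 and 0.41), and that for L and H does not (0.04).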

How the data were processed

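The authors deposited linear intensity values for 8297 probe sets on each array; the software and background correction behind them are not given in the sources used here. Control probe sets (50) were left out, and 4425 of the other 8247 had a mean signal of 20 or more. Values were analysed as log2(value + 3.9) and tested in R 4.3.3 with limma 3.58.1 (start and ending as terms, eBayes with an intensity trend, 2 residual degrees of freedom, Benjamini-Hochberg adjustment over the 4425), and the fit was tested on simulated data. An exact test of 3 pairs cannot give a two-sided p below 0.25. Precision is limited by the number of arrays, 1 for each code.

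Gene names came from the annotation of the platform and, for current symbols, the TAIR10.1 gene table. Of the 4425, 1856 had 1 gene, 40 several and 2529 none listed. The brightest probe set stood for a gene. Sequences were not used here.

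The members and lists were chosen with earlier results of these data known. The lists were rewritten by gene symbol once the annotation was at hand. Named were the 15 genes per direction with the largest smallest paired difference among those with 1 sign, 8 per direction among those with a mean of 500 or more, up to 4 such members of each list with 3 or more genes (or its most abundant member), its 5 most abundant members where useful, and every called probe set. UBC35, SLY1, RHF1A, TAPX, ty2, DIM1A, EIF4A-2, ATG8B, BETA-VPE, LHCB4.3, UBP16 and SAE1A were named outside this rule, after their values were seen, to account for a count or to set a contrast. Alternatives changed the scaling, the offset, the filter, the variance model, the ending term and the pairs included.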

Additional observations from a re-analysis of the deposited data

How the results depend on the processing

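The 2 probe sets called lower in CV were called under quantile normalization, offsets of 1 and 16, no filter, the lowest 30% left out and a mean of 50 or more. The count was 0 when arrays were centred on the median, 0 without the intensity trend, 0 with no replicate block (the ending left out of the model), where 766 probe sets had an unadjusted p under 0.05, and 4 with robust eBayes. At an unadjusted p under 0.05 there were 659 when centred and 624 without the trend. Leaving out a pair moved the count between 0 (without the M pair, with 286 at an unadjusted p under 0.05) and 149 (without the L pair), with 1 residual degree of freedom. The number of probe sets higher in CV at every ending was between 910 and 1152 with a pair left out, when 2 signs had to match and not 3, and of those lower between 1277 and 1864. With no filter 1637 probe sets were lower, of 8247, and with a mean of 50 or more 633, of 2856, as more or fewer were tested. Among the list medians, 295 of 329 values moved by less than the spread of the 3 paired medians and 34 by more. Of 1665 refitted values of named genes 2 turned direction, AT4G02620 after quantile normalization (-0.00599) and GI when a pair was left out (between -0.49 and 0.015), a further 24 passed the threshold and 8 no longer did; the cause was not tested. Signals below the offset limit the sizes given for THI2.1, AT4G03295 and CSLA01.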
